A study of Rattus norvegicus with 12 samples.

Results

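The calcium/calmodulin-dependent protein kinases (CaM kinases) are serine/threonine kinases that calcium-loaded calmodulin switches on. The 10 genes described here were chosen by name from the RNA table, not by their values, but with earlier results of these data known. They are the CaMKII genes Camk2a, Camk2b, Camk2d and Camk2g, and the CaMKI genes Camk1, Camk1d and Camk1g. The CaMKIV gene Camk4 and the CaMK kinase genes Camkk1 and Camkk2 complete the set. All 10 were found among 26949 genes, and all 10 were among the 17935 genes that passed the filter on low counts. The libraries came from hippocampus of male rats exposed to chronic intermittent hypoxia (CIH), cycles of low oxygen that model sleep apnoea, for 4 weeks (3 libraries), or kept in normoxia for 4 weeks as controls (3 libraries). The labels name no strain, age or number of animals for a library, so p-values measure the spread between these libraries, which may be technical. Since each library is bulk tissue, fewer cells of a type and less RNA per cell cannot be told apart.

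CaMKII is a multi-subunit enzyme whose subunits phosphorylate each other after a calcium signal and then stay active when calcium has fallen, a property studied in long-term potentiation and memory. Its α and β subunits, from Camk2a and Camk2b, are the main forms in forebrain neurons, while the δ and γ subunits are found in many tissues. CaMKI enzymes act in neurite growth and the cytoplasm, CaMKIV acts mainly in the nucleus on the transcription factor CREB, and the CaMK kinases phosphorylate CaMKI and CaMKIV. CaMKK2 also phosphorylates AMP-activated protein kinase, an energy sensor.

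RefSeq promoters were matched for 8 of the 10 genes (Camk1d and Camkk2 are named only). The 4 printed here belong to Camk2a, Camk2b and Camkk1, whose levels rank the libraries in nearly one order (given further on), and to Camk2d, which ranks them otherwise. Each is the 250 bases before the RefSeq start site in build GRCr8, 5′ to 3′ on the gene's strand: chr18:56648930-56649179 (plus strand) for Camk2a, chr14:85147945-85148194 (minus strand) for Camk2b, chr10:58135685-58135934 (plus strand) for Camkk1 and chr2:217698301-217698550 (plus strand) for Camk2d. Capitals mark letters of the GC box GGGCGG, the cAMP response element half-site TGACG and the CCAAT box, read on both strands.
Camk2a: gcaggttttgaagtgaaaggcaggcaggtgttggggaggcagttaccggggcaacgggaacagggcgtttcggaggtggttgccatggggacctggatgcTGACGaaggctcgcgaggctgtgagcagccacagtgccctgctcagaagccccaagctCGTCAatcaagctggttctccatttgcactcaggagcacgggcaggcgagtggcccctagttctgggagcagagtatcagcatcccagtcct
Camk2b: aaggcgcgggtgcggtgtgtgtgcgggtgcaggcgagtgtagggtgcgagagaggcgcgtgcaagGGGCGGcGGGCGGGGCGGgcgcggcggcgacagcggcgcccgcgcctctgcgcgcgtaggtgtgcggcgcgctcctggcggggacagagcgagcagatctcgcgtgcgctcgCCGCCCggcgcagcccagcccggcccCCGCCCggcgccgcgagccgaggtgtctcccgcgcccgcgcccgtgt
Camkk1: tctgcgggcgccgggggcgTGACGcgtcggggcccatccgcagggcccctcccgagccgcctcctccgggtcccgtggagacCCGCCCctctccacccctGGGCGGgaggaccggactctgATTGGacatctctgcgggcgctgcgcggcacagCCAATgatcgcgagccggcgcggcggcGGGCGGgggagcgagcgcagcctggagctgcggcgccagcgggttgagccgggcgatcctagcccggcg
Camk2d: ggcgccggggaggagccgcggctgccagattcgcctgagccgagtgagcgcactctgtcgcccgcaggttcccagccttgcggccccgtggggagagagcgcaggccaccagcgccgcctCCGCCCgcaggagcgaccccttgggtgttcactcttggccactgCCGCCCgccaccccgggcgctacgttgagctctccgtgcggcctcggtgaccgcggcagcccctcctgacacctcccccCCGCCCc

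The Camk2a promoter held 2 TGACG half-sites, at -150 and -92 from the start site, and no GC box. Camk2b held 5 GC boxes, of which 2 share letters (at -178 and -173), and Camk2d held 3, neither with a TGACG. Camkk1 held 3 GC boxes, 1 TGACG and 2 CCAAT boxes. Over all 33469 promoters of this length, 30.5% held GGGCGG, 18.2% TGACG and 34.0% CCAAT on either strand. None of the 8 matched members held TATAAA, which 12.9% of promoters did. GC content was 60.4% for Camk2a, 80.4% for Camk2b, 77.6% for Camkk1 and 75.2% for Camk2d, against a median of 51.2% over all promoters. Of the matched members not printed, Camk2g (80.8%) and Camk1 (57.2%) lay above that median, and Camk1g (45.2%) and Camk4 (44.4%) below it. Camkk1 shared the TGACG half-site with Camk2a and the GC box with Camk2b, while Camk2a and Camk2b shared none of these motifs. Among genes that rank the libraries otherwise, Camk2d and Camk2g also held the GC box, and Camk1 held a TGACG, at -193. Whether these motifs bear on the order of the libraries was not tested. A match describes the sequence alone, and a missing match says nothing of the factor.

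The estimated counts of a library summed to between 17170900 and 21941200, and the 10 genes together took 70083 to 168862 of them. In TPM, a level per transcript length, Camk2a averaged 3581 ± 1293 TPM over the 6 libraries (SD, n = 6) and ranked between 10th and 40th of all genes in each. Camk2b followed at 768 ± 339 TPM. Both stood above every other member in every library, with no overlap between the Camk2a range, the Camk2b range and that of the next gene. Below them the levels ran together: Camkk1 at 143 ± 36.2, Camk1d at 143 ± 39.5, Camk2g at 123 ± 8.31, Camk2d at 90.3 ± 94.1, Camk4 at 70.7 ± 39.5, Camkk2 at 61.0 ± 7.95, Camk1 at 42.3 ± 10.9 and Camk1g at 26.4 ± 10.1 TPM. The ranges of each neighbouring pair among these 8 overlapped over the 6 libraries, though Camk1 lay above Camk1g within each of the 6 libraries.

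CIH against normoxia was the study's comparison, and Camkk2 was the 1 member of 10 whose groups did not overlap, as was so for 5.70% of all tested genes. Camkk2 stood at 70.4, 69.7 and 70.2 CPM (counts scaled by the adjusted library total) in CIH replicates 1, 2 and 3, against 58.1, 54.7 and 53.3 CPM in control replicates 1, 2 and 3. Every CIH library lay above every control, and the CIH libraries lay within 1 CPM of each other. Its mean was 70.1 ± 0.340 CPM in CIH and 55.4 ± 2.47 CPM in control (SD, n = 3 each), so that CIH stood 26.7% above control. On the log2 scale the fold change was 0.34 (SE 0.09), with a 95% interval of 0.13 to 0.55. The unadjusted p of edgeR's quasi-likelihood test was 0.00617, and after Benjamini-Hochberg adjustment over all tested genes the adjusted p was 1.00. An exact two-sided permutation test on its log2 CPM gave p = 0.10, the smallest that 3 libraries against 3 allow. Any gene whose groups do not overlap gets that p, so it only restates the separation. Leaving out each library in turn gave a log2 fold change of 0.31 to 0.38, with unadjusted edgeR p from 0.00892 to 0.0293 and adjusted p from 0.823 to 1.00. In TPM, too, the groups did not overlap, with 69.1, 66.3 and 69.0 in CIH against 56.3, 53.0 and 52.5 in control.

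**Figure D1:**
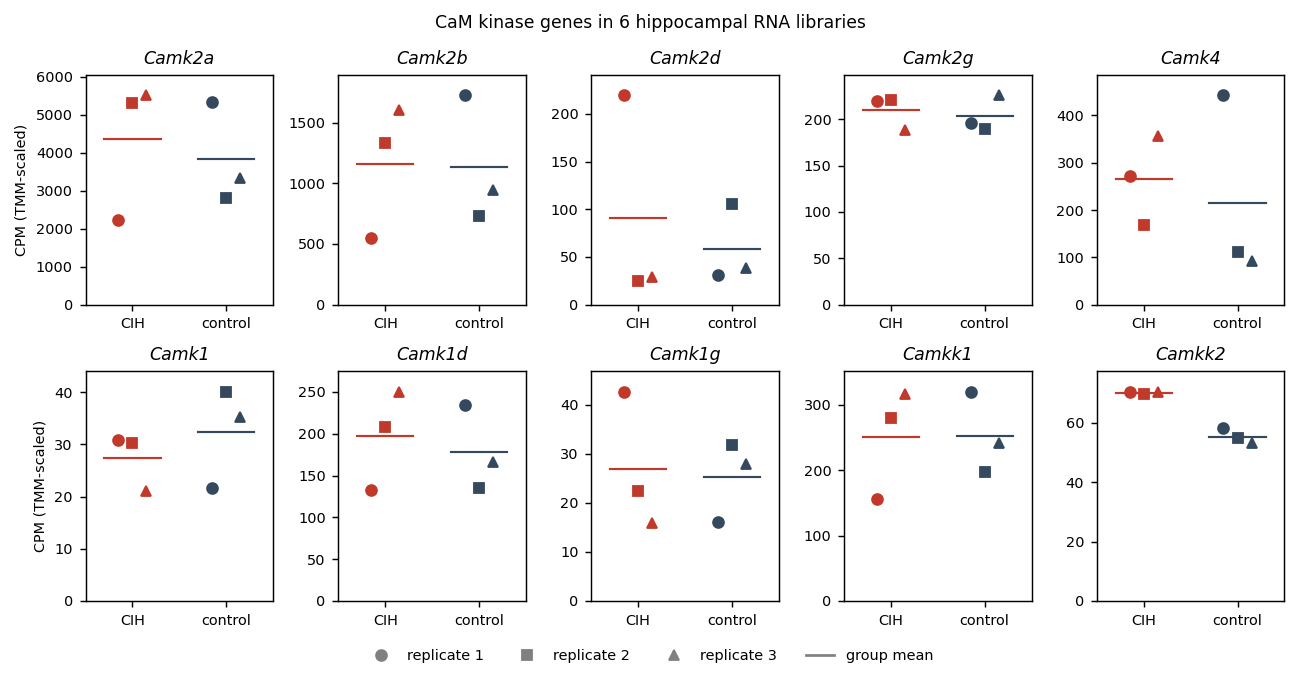
Level of each CaM kinase gene in CPM (linear axis from 0) by group, 1 point per library with its replicate number as the shape, and a line at the group mean (n = 3 each). The Camkk2 points of CIH lie near 70 CPM and those of control between 53.3 and 58.1 CPM, while in the other 9 panels the groups overlap.

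In the RefSeq gene table the Camkk2 gene overlaps P2rx4, an ATP-gated channel gene, and no source used here states whether counting used the strand. P2rx4 had 106, 222 and 211 estimated counts in CIH against 134, 214 and 253 in control, fewer than the 1256, 1471 and 1389 of Camkk2 in CIH and its 1169, 1097 and 1149 in control. The P2rx4 groups overlapped, with -0.10 (SE 0.30) as log2 fold change. Camk1 overlaps the DNA repair gene Ogg1, which had 64 to 118 estimated counts per library. The other overlapping entries that the RNA table holds, LOC108352789 in Camk2b and LOC108348589 in Camk1d, had at most 12 and 1 counts per library.

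Of the endothelial markers, 3 of the 5 tested split the libraries as Camkk2 did. All 5 were positive in log2 fold change, with a median of 0.33, and Pecam1, Flt1 and Slco1a4 (named after their values were seen) showed no overlap between groups, beside 5.70% of all tested genes, while Cldn5 and Tek overlapped. With edgeR 0 of the 5 passed the threshold, and 2 had an unadjusted p under 0.05, beside 1.78% of all tested genes. In the other marker lists the groups did not overlap for Pvalb, an interneuron marker, and Lamp5, a cortical marker. Both were higher in CIH and also named after their values were seen. Pvalb went against its list: of the 8 interneuron markers 1 was positive and 7 negative, with a median log2 fold change of -0.19. Of the 7 cortical markers 6 were positive and 1 negative. A list with 1 sign throughout was not particular to endothelium. All 6 oligodendrocyte markers were positive, with a median of 0.36. All 6 tested dentate granule cell markers were negative, with a median of -0.36, as were all 4 tested choroid plexus markers, with a median of -0.58. The mean of the 5 endothelial markers as a difference from the 6-library mean of log2 CPM was 0.49, 0.02 and 0.01 in CIH replicates 1, 2 and 3, against -0.24, -0.10 and -0.16 in control replicates 1, 2 and 3. Summed in TPM over the 6 listed endothelial genes the groups overlapped, at 250.2 to 299 TPM in CIH and 194 to 272 TPM in control, with Ly6c at 0 in at least 1 library. The part of any of these markers in the Camkk2 value was not tested.

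Of all genes tested, 0 (0%) passed the edgeR threshold of 0.05, 319 (1.78%) had an unadjusted p under 0.05 and 1022 (5.70%) showed no overlap, 547 of them higher in CIH (3.05%). DESeq2 called 10 genes and limma on log2(TPM + 1) called 1. Of the 10 CaM kinase genes 0 passed the edgeR threshold, and 0 passed with limma or with DESeq2, which gave no p for Camk2d. Camkk2 alone had an unadjusted p under 0.05, and it was also the 1 gene without overlap. The other 9 had edgeR unadjusted p from 0.379 to 0.963 and adjusted p of 1.00 each. By sign 8 members had a positive and 2 a negative log2 fold change, with a median of 0.12, against 9078 positive and 8857 negative and a median of 0.00 over all tested genes. The count of positive members moved with single libraries. Without control replicate 2, Camk2b, Camk2g, Camk1d and Camk4 turned negative, and without CIH replicate 3, Camk2a, Camk2b and Camk1d did. Camkk1 turned positive without CIH replicate 1 or without control replicate 1.

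**Figure D2:**
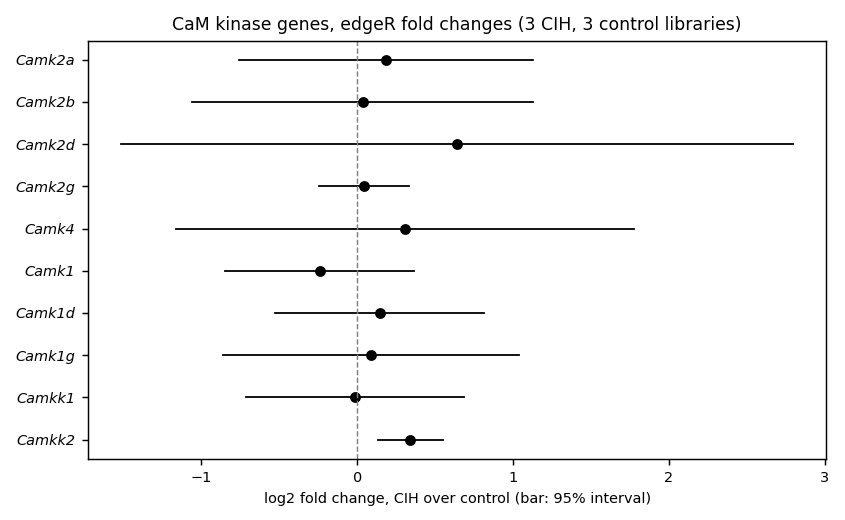
Log2 fold change of each CaM kinase gene, CIH over control, from edgeR (point) with its 95% interval (bar, not adjusted for the number of genes; 3 libraries per group). The Camkk2 interval, 0.13 to 0.55, lies above 0, and the other 9 include 0, the widest being that of Camk2d.

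The other CaMK kinase gene, Camkk1, showed no such separation. Camkk1 stood at 155, 279 and 317 CPM in CIH replicates 1, 2 and 3, against 320, 198 and 242 CPM in control replicates 1, 2 and 3. CIH replicate 1 was the lowest of the 6 libraries and control replicate 1 the highest. The Camkk1 log2 fold change was -0.01 (SE 0.29), with an interval of -0.71 to 0.68, and it turned to 0.23 with CIH replicate 1 left out and 0.19 with control replicate 1 left out. The ratio of Camkk1 to Camkk2, both in TPM, was 1.33, 2.32 and 2.62 in CIH and 3.23, 2.15 and 2.63 in control.

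Camk2a, which encodes the α subunit, stood at 2239, 5322 and 5509 CPM in CIH replicates 1, 2 and 3, against 5344, 2798 and 3344 CPM in control replicates 1, 2 and 3. The libraries fell into a low set (CIH replicate 1 and control replicates 2 and 3) and a high set (CIH replicates 2 and 3 and control replicate 1) that cross the treatment groups. For Camk2a the log2 fold change was 0.19 (SE 0.40), with an interval of -0.76 to 1.13, which reaches past a doubling. Leaving out CIH replicate 3 gave -0.02, and leaving out control replicate 1 gave 0.51.

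Camk2b, which encodes the actin-binding β subunit, stood at 545, 1331 and 1605 CPM in CIH replicates 1, 2 and 3, against 1724, 733 and 941 CPM in control replicates 1, 2 and 3. The same 3 libraries as for Camk2a were high. CIH over control gave a log2 fold change of 0.03 (SE 0.46), with an interval of -1.06 to 1.13. It turned negative without CIH replicate 2 (-0.07), CIH replicate 3 (-0.28), control replicate 2 (-0.20) or control replicate 3 (-0.08), and with limma on log2(TPM + 1) (-0.02), and it was 0.47 without control replicate 1.

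Camk2d, the δ subunit gene, varied most of the 10. Camk2d stood at 219, 25.2 and 29.0 CPM in CIH replicates 1, 2 and 3, against 31.2, 106 and 38.2 CPM in control replicates 1, 2 and 3. CIH replicate 1 and control replicate 2 were high and the other 4 libraries lay between 25.2 and 38.2 CPM, so the highest library held 8.71 times the lowest. The coefficient of variation over the 6 libraries was 103%, above that of 99.5% of tested genes with a mean above 1 CPM. A log2 fold change of 0.64 (SE 0.91) for Camk2d had an interval of -1.51 to 2.80. Without CIH replicate 1 the Camk2d value was -1.11. Both remaining CIH libraries then lay below all 3 controls, beside 14.3% of all tested genes with no overlap in either direction. The edgeR unadjusted p of that reduced fit was 0.0832 and its adjusted p was 1.00. Without control replicate 2 the value was 1.39, and with limma on log2(TPM + 1) it was 0.20.

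Camk2g, the γ subunit gene, was the steadiest member. Camk2g stood at 220, 221 and 189 CPM in CIH replicates 1, 2 and 3, against 196, 189 and 226 CPM in control replicates 1, 2 and 3. No library stood apart, and its coefficient of variation was 8.27%. The Camk2g log2 fold change of 0.04 (SE 0.12) had an interval of -0.25 to 0.33, so an increase by more than 0.33 or a decrease by more than 0.25 on the log2 scale lay outside it. The value without control replicate 2 was -0.01. It is the only member whose deposited counts were not whole, so some of its reads may have been shared with other genes in the estimate.

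The CaMKII genes together summed to 2666, 5684 and 6060 TPM in CIH replicates 1, 2 and 3, against 6055, 3173 and 3735 TPM in control replicates 1, 2 and 3. Camk2a made up 72.1%, 81.4% and 79.7% of that sum in CIH and 77.8%, 77.1% and 79.0% in control. The mean share was 77.7 ± 4.97% in CIH and 78.0 ± 0.953% in control (SD, n = 3 each), a difference below the spread of the CIH libraries. Camk2d made up 9.97% of the sum in CIH replicate 1 and 4.14% in control replicate 2, and 0.537% to 1.01% in the other 4 libraries. The ratio of Camk2a to Camk2b in TPM was 5.53, 5.19 and 4.44 in CIH and 3.97, 5.09 and 4.79 in control, so the groups overlapped. In CIH replicate 1 Camk2d exceeded Camk2g, by a ratio of 2.03, and in control replicate 2 by 1.16, while in the other 4 it was at most 0.337 of Camk2g.

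**Figure D3:**
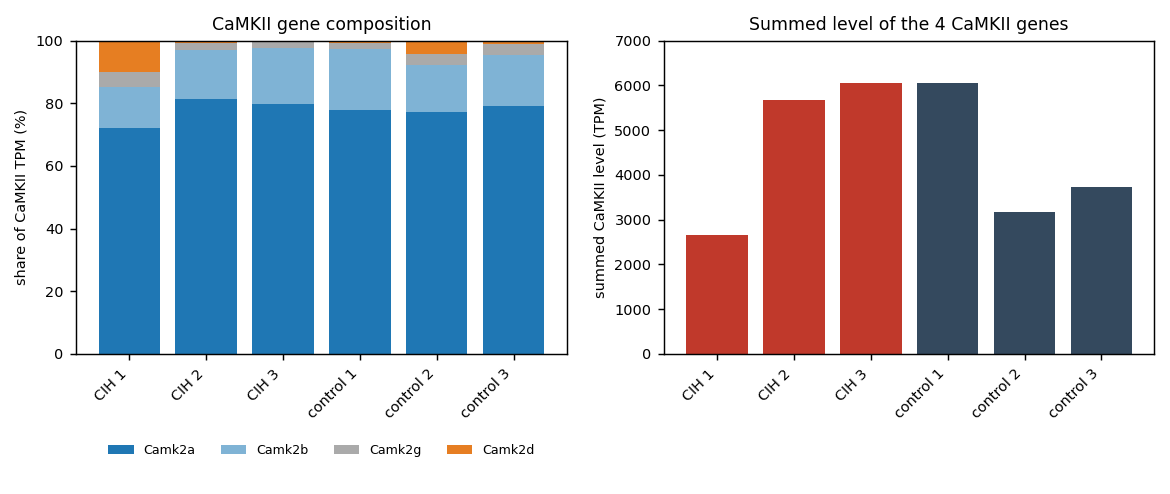
Left, share of the summed CaMKII TPM from each of the 4 genes (percent, stacked bars) and right, the sum itself (TPM, linear axis from 0), in the 3 CIH libraries (red on the right) and the 3 control libraries (blue). Camk2a holds 72.1% to 81.4% of the sum in every library, and the Camk2d share is largest in CIH replicate 1.

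Camk4, the gene of nuclear CaMKIV, stood at 273, 169 and 356 CPM in CIH replicates 1, 2 and 3, against 442, 110 and 92.5 CPM in control replicates 1, 2 and 3. Control replicate 1 was the highest of the 6 libraries and the other 2 controls were the lowest. The Camk4 log2 fold change of 0.31 (SE 0.62) had an interval of -1.16 to 1.78. Without control replicate 1 the Camk4 value was 1.39. All 3 CIH libraries then lay above both remaining controls, beside 22.4% of all tested genes with no overlap in either direction. The edgeR unadjusted p of that reduced fit was 0.00515 and its adjusted p was 0.733. Without control replicate 2 it was -0.01 and without control replicate 3 it was -0.06. Control replicate 1 was also the library closest to CIH replicate 3 in all counts. A chi-square of 7.08 per degree of freedom between them was the smallest of all pairs of libraries. The next, between control replicates 2 and 3, was 13.2. Pairs with CIH replicate 1 ran from 33.8 to 65.3, the largest of all pairs. The part of these differences in the Camk4 value was not tested.

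Among the CaMKI genes, Camk1d stood at 133, 208 and 250 CPM in CIH replicates 1, 2 and 3, against 235, 135 and 166 CPM in control replicates 1, 2 and 3. It was high in the same libraries as Camk2a. The Camk1d log2 fold change was 0.14 (SE 0.28), with an interval of -0.53 to 0.82, and turned to -0.07 without CIH replicate 3 and -0.03 without control replicate 2.

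Camk1 stood at 30.8, 30.3 and 21.0 CPM in CIH replicates 1, 2 and 3, against 21.7, 40.1 and 35.3 CPM in control replicates 1, 2 and 3. CIH replicate 3 and control replicate 1 were the low libraries. The Camk1 log2 fold change was -0.24 (SE 0.26), with an interval of -0.85 to 0.37, and it kept its sign without each library in turn, from -0.46 without control replicate 1 to -0.06 without control replicate 2. With control replicate 1 left out, all CIH libraries lay below both remaining controls, beside 22.4% of all tested genes with no overlap in either direction. The edgeR unadjusted p of that reduced fit was 0.0571 and its adjusted p was 0.904.

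Camk1g, a CaMKI gene of neurons, stood at 42.7, 22.3 and 16.0 CPM in CIH replicates 1, 2 and 3, against 16.2, 31.9 and 28.0 CPM in control replicates 1, 2 and 3. CIH replicate 1 was the highest and CIH replicate 3 the lowest of all 6. The Camk1g log2 fold change was 0.09 (SE 0.40), with an interval of -0.86 to 1.04, and turned to -0.41 on leaving out CIH replicate 1 and -0.15 on leaving out control replicate 1.

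Seen by library, Camk2a, Camk2b, Camk1d and Camkk1 each had CIH replicate 2, CIH replicate 3 and control replicate 1 as their 3 highest libraries and CIH replicate 1 as the lowest. Camk2d, Camk1 and Camk1g each had CIH replicate 1, control replicate 2 and control replicate 3 as their 3 highest. Camk4, Camk2g and Camkk2 followed neither order. The genes most like Camk2a over the 6 libraries, among 11144 genes with a mean log2 CPM above 3 and outside the family, were Diaph1, Trim2, Prag1, Inka2 and Mtmr14 (Pearson r from 0.992 to 0.998 of log2 CPM, used only to rank genes). Because the Camk2a libraries form a low and a high set, this likeness is given as a description with no p. Those most like Camkk2 were Apbb2, RGD1565616, LOC108348302, Bola3 and Fam131b (r from 0.973 to 0.988), with log2 fold changes from 0.15 to 0.31 and edgeR adjusted p of 1.00 each. Since Camkk2 was higher in every CIH library, positive fold changes follow from choosing genes like it.

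Marker lists of hippocampal fields and neighbouring tissue also differed between libraries. The summed level of 8 dentate granule cell markers was 188, 441 and 720 TPM in CIH replicates 1, 2 and 3, against 867, 402 and 536 TPM in control replicates 1, 2 and 3, with Tdo2 and Lct at 0 in at least 1 library. Like Camk2a and Camk2b, this list was lowest in CIH replicate 1. Summed markers of CA3 pyramidal cells, 5 genes with Iyd at 0 in at least 1 library, ran from 85.5 to 238 TPM in CIH and from 138 to 210 TPM in control, again lowest in CIH replicate 1. The 5 matched CA1 pyramidal markers summed to 616, 588 and 819 TPM in CIH replicates 1, 2 and 3. In control replicates 1, 2 and 3 they summed to 849, 467 and 325 TPM. This sum ranked the 6 libraries as Camk4 did. So did Wfs1 alone, at 390, 219 and 533 TPM in CIH against 575, 186 and 73.7 TPM in control. The other matched CA1 markers each ranked them otherwise, Fibcd1 and Mpped1 being highest in CIH replicate 2 (these 3 named after their values were seen). By mean difference in log2 CPM the order of the CA1 list was another, with CIH replicate 1 at -0.28 below control replicate 2 at -0.23. The 6 pan-neuronal markers varied less, from 3439 to 4374 TPM in CIH and from 3604 to 4151 TPM in control.

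Summed markers of tissue next to the hippocampus were highest in CIH replicate 1, the library where Camk2d was highest. The 7 cortical markers summed to 340, 180 and 202 TPM in CIH replicates 1, 2 and 3, against 174, 196 and 147 TPM in control replicates 1, 2 and 3, and the 8 striatal and thalamic markers to 197, 153 and 151 TPM in CIH against 168, 148 and 119 TPM in control. Single markers of these 2 lists went otherwise (named after their values were seen). In CPM, Lamp5 was highest in CIH replicate 3, Ppp1r1b in control replicate 1, and Fezf2, Rgs9 and Adora2a in control replicate 2. The other markers of both lists were highest in CIH replicate 1. Ppp1r1b was the largest part of the striatal and thalamic sum, at 107 TPM in CIH replicate 1 and 112 TPM in control replicate 1. No marker of these 2 lists was at 0 in any library. The 6 oligodendrocyte markers summed to 7189, 7695 and 10403 TPM in CIH, against 11234, 4273 and 4023 TPM in control. Control replicates 2 and 3 were lowest in this list, as they were for Camk4 and for the summed CA1 markers. The part of any marker list in the values of any CaM kinase gene was not tested.

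The remaining lists moved less or in another order. The 8 interneuron markers ran from 897 to 1148 TPM in CIH and from 916 to 1324 TPM in control, the 6 astrocyte markers from 3308 to 3425 TPM in CIH and from 2786 to 3678 TPM in control, and the 6 microglial markers from 186 to 225 TPM in CIH and from 187 to 217 TPM in control. The 6 choroid plexus markers ran from 5.53 to 64.4 TPM in CIH and from 17.0 to 62.2 TPM in control. Otx2, a choroid plexus marker, was at 0 in at least 1 library. In each marker list the groups overlapped in summed TPM.

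**Figure D4:**
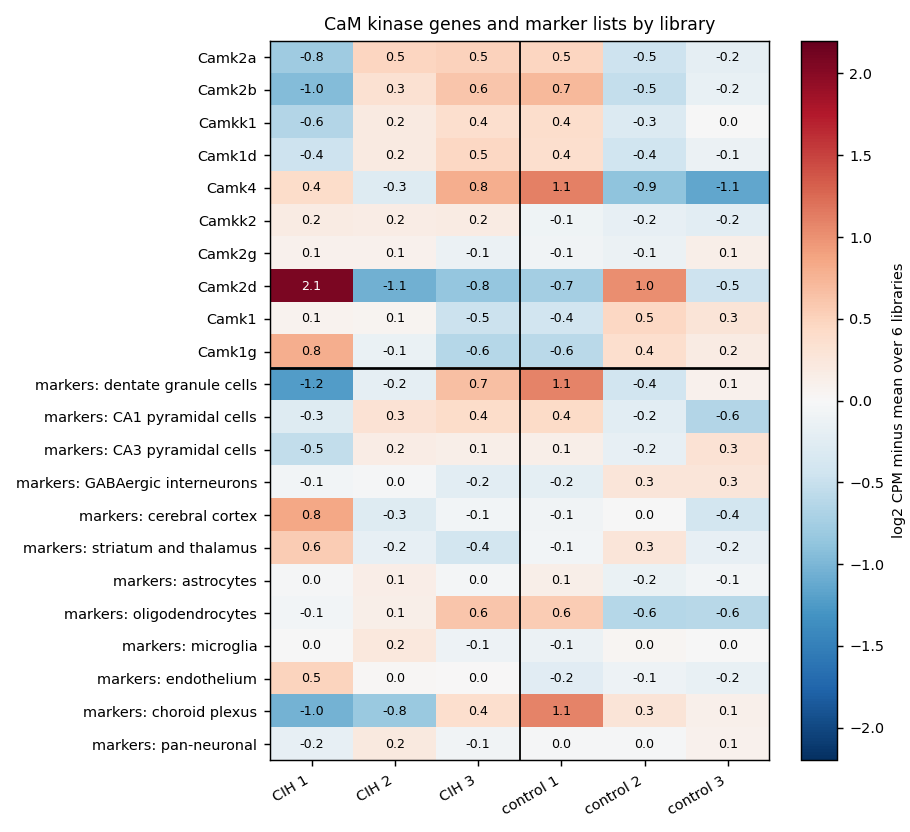
Difference from the mean over the 6 libraries, in log2 CPM, for the 10 CaM kinase genes (top) and for the mean of the tested genes of 12 marker lists (bottom), with CIH libraries left and control libraries right. Camk2a, Camk2b, Camkk1 and Camk1d are lowest in CIH replicate 1, where Camk2d is highest, and Camkk2 is positive in the 3 CIH libraries and negative in the 3 controls.

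Of the wider calcium/calmodulin pathway, 60 genes in 6 lists were all tested, and 0 passed the edgeR threshold, 0 had an unadjusted p under 0.05, and 0 passed with DESeq2 or limma. Over the 60 the median was 0.03 on the log2 scale, and 36 were positive and 24 negative. The groups did not overlap for 2 of them, both higher in CIH, a share of 3.33% beside 5.70% over all genes. Those 2 were Dclk1, a doublecortin-like kinase related to the CaM kinases, and the CREB coactivator gene Crtc2, the second chosen after its values were seen.

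Dclk1 stood at 1037, 808 and 805 CPM in CIH replicates 1, 2 and 3, against 769, 677 and 687 CPM in control replicates 1, 2 and 3. Every CIH library lay above every control. The Dclk1 log2 fold change was 0.31 (SE 0.15), with edgeR unadjusted p = 0.0744 and adjusted p = 1.00, and it ran from 0.18 without CIH replicate 1 to 0.37 without control replicate 1. Crtc2 had a log2 fold change of 0.08 (SE 0.10).

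Of the 6 calmodulin genes and calmodulin-binding neuronal proteins, 4 were positive and 2 negative, with a median log2 fold change of 0.05. Calm3, one of the genes of calmodulin itself and the highest of the list, stood at 0.11 (SE 0.16), and between 0.03 without CIH replicate 2 and 0.22 without CIH replicate 1. Pcp4, a small protein that speeds calcium exchange on calmodulin, had 26.7, 35.1 and 29.0 CPM in CIH replicates 1, 2 and 3, against 46.1, 31.4 and 44.2 CPM in control replicates 1, 2 and 3. Control replicate 2 lay inside the range of the CIH libraries. The Pcp4 log2 fold change was -0.42 (SE 0.18), with edgeR unadjusted p = 0.0534 and adjusted p = 1.00.

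Of the 10 CaMK inhibitors and phosphatases, 8 were positive and 2 negative, with a median log2 fold change of 0.03. Camk2n1, an inhibitor of CaMKII and the highest of this list in TPM, stood at 0.11 (SE 0.17), and at -0.06 without CIH replicate 1. Rcan2, a calcineurin regulator, stood at 0.33 (SE 0.27), and between 0.18 without CIH replicate 1 and 0.63 without control replicate 1. Ppp3cc, a calcineurin catalytic subunit gene, stood at 0.15 (SE 0.14), and between 0.07 with CIH replicate 3 left out and 0.24 with CIH replicate 2 left out. The 11 related kinases split into 6 positive and 5 negative, with a median of 0.04. Mylk, the myosin light chain kinase gene, stood at 0.39 (SE 0.23), and at 0.14 without CIH replicate 1.

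The 12 CaMKII partners and substrates split evenly, 6 positive and 6 negative, with a median log2 fold change of -0.03. Map2, the dendritic microtubule protein gene and the highest of this list, stood at 0.11 (SE 0.14), and between 0.04 without CIH replicate 2 and 0.17 without CIH replicate 3. Actn2, an actin cross-linker that binds CaMKII, stood at -0.59 (SE 0.40), with 16.2, 53.7 and 31.5 CPM in CIH replicates 1, 2 and 3 against 44.9, 46.6 and 61.0 CPM in control replicates 1, 2 and 3. The Actn2 value was -0.26 without CIH replicate 1 and -1.09 without CIH replicate 2. Tiam1, a Rac exchange factor, stood at -0.24 (SE 0.28) and at 0.04 without control replicate 1.

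Of 12 CaMKI, CaMKIV and CaMKK targets, 7 were positive and 5 negative, with a median log2 fold change of 0.07. Crtc1, a CREB coactivator and the highest of this list, stood at -0.08 (SE 0.17), and at 0.07 with CIH replicate 1 left out and 0.01 with control replicate 1 left out. Mef2c, a calcium-regulated transcription factor gene, stood at 0.49 (SE 0.42) and at -0.10 without CIH replicate 1, which held 292 CPM against 84.6 to 149 in the other 5 libraries. Hdac5, a histone deacetylase that CaM kinases export from the nucleus, stood at 0.16 (SE 0.16), and between 0.01 with CIH replicate 1 left out and 0.29 with CIH replicate 3 left out. The catalytic subunit genes of AMP-activated protein kinase, Prkaa1 and Prkaa2, chosen after their values were seen, stood at -0.06 (SE 0.29) and 0.09 (SE 0.14). The edgeR adjusted p was 1.00 for each pathway gene named.

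Of 9 genes of calcium entry and stores, 5 were positive and 4 negative, with a median log2 fold change of 0.02. The calcium pump gene Atp2a2, the highest of this list, stood at 0.03 (SE 0.13), and at -0.04 without CIH replicate 2 and -0.34 with limma on log2(TPM + 1). Cacna1c, the gene of an L-type calcium channel, stood at -0.47 (SE 0.30), with CIH replicate 1 the lowest library at 152 CPM, at -0.20 without that library and at -0.73 without CIH replicate 2. Atp2b2, a plasma membrane calcium pump gene, stood at 0.13 (SE 0.20), and between 0.01 without control replicate 2 and 0.34 without control replicate 1. The count of positive genes in this list was 3 with limma and moved with single libraries, to 8 without CIH replicate 1 and to 1 without CIH replicate 2, and in the list of inhibitors and phosphatases to 4 without CIH replicate 3 or without control replicate 2, and 5 without control replicate 3. In the list of calmodulin genes it was 2 without CIH replicate 3 or without control replicate 2.

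**Figure D5:**
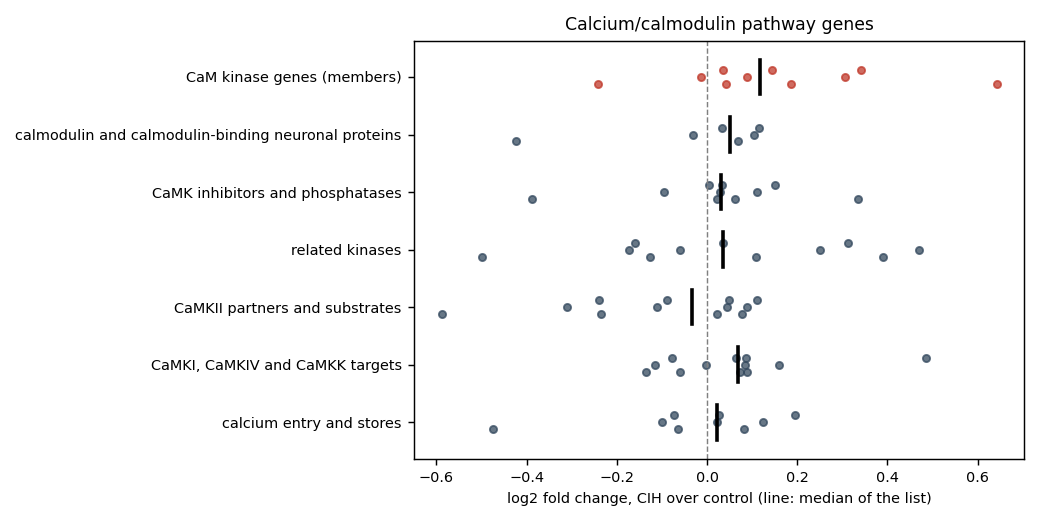
Log2 fold change, CIH over control, of each tested gene (points, edgeR) in the CaM kinase family (red) and in 6 lists of the pathway (blue), with the median of each list as a line. List medians lie between -0.03 and 0.12.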

How the data were processed

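Hippocampal RNA of male rats was sequenced in 3 CIH and 3 control libraries, grouped by their titles. Per the file headers, the deposited table gives estimated counts, TPM and FPKM, all made by the authors. Per the submitters' processing notes, the tools were HISAT2 2.2.0, Bowtie2 2.2.5 and RSEM 1.2.12 and the build was Rnor_6.0. Their roles are not stated there. The deposited estimated counts (15.7% to 16.4% of values per library not whole) were rounded. The authors' TPM gave levels per length and an alternative test, and their FPKM gave 1 alternative share. The small RNA table was not used here.

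All genes were fitted with edgeR 4.0.16 in R 4.3.3 (quasi-likelihood F test, TMM, filterByExpr, Benjamini-Hochberg adjustment, threshold 0.05). Fold changes put CIH over control, and the SE was derived from the log2 fold change and F. Log2 CPM used a prior count of 2. Replicates of a group did not agree within sampling noise. Alternatives were RLE, no filter, DESeq2 1.42.0, limma 3.58.1 on log2(TPM + 1) or log2(TPM + 0.1), a replicate block, and fits without each library in turn. Intervals cover 95%. Figures used matplotlib 3.10.9 in Python 3.11.15.

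Members and lists were chosen with earlier results of these data known. Named besides the members were, of each pathway list, the gene with the highest mean TPM and the 2 with the smallest edgeR p, and 5 genes each most like Camk2a and the member with the smallest p. Gene overlaps were read by position from a RefSeq table of another build, GRCr8, in which all 10 members were matched by gene ID.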

Additional observations from a re-analysis of the deposited data

How the results depend on the processing

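The number of genes called was 10 with DESeq2 and 1 with limma on log2(TPM + 1) or log2(TPM + 0.1), against 0 in edgeR, and 0 to 1 when 1 library was left out. The number of CaM kinase genes called was 0 under every alternative run, though DESeq2 gave Camk2d no p and so tested 9 of the 10. The members without overlap numbered 1 to 3 when 1 library was left out. Camkk2 was among them each time, which follows from its groups being apart with all libraries kept and is no further support. Camk2d joined it without CIH replicate 1, and Camk1 and Camk4 joined it without control replicate 1. The share of all tested genes was 14.3% without CIH replicate 1 and 22.4% without control replicate 1. Over all these fits it ran from 9.79% to 22.4%. The difference in Camk2a share was -0.245 percentage points, and ran from -2.10 to 2.58 when 1 library was left out. With all libraries kept, 4 of 156 recomputed fold changes turned direction, all with limma: Camk2b at -0.020 and Atp2a2 at -0.34 with either pseudocount. Of 156 recomputed without 1 library, 21 turned. Over the left-out libraries the log2 fold change ran from -0.023 to 0.51 for Camk2a, -0.28 to 0.47 for Camk2b, -1.11 to 1.39 for Camk2d, -0.011 to 0.12 for Camk2g, -0.068 to 0.39 for Camk1d, -0.41 to 0.35 for Camk1g, -0.056 to 1.39 for Camk4, -0.22 to 0.23 for Camkk1, -0.056 to 0.24 for Camk2n1, -0.54 to 0.039 for Tiam1, -0.16 to 0.067 for Crtc1, -0.10 to 0.81 for Mef2c and -0.043 to 0.083 for Atp2a2. The cause was not tested. The labels do not say that replicate numbers pair the libraries. Deviations of same-numbered libraries from their group means correlated at -0.222, -0.0457 and -0.176. With 3 libraries a group these values cannot exclude a pairing. With the replicate block 0 genes were called, and Camkk2 stood at 0.34, but Camk2d at 0.0085, Camk1g at 0.0030, Camkk1 at -0.040 and Camk4 at 0.62. With limma on log2(TPM + 1), Camk2a stood at 0.11, Camk2d at 0.20, Camk4 at 0.48, Camkk1 at -0.057, Calm3 at 0.065, Mylk at 0.17 and Mef2c at 0.31. With log2(TPM + 0.1), Camk1g stood at 0.13. With 3 libraries a group, the intervals of Camk2a, Camk2b, Camk2d, Camk4 and Camk1g reach past a doubling.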
